A study of Mus musculus with 5 samples.

Results

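The transcripts of Cish and Socs1 to Socs7, the genes of the CIS and SOCS feedback inhibitors of cytokine signalling, were followed in 5 single-cell RNA libraries of mouse lung group 2 innate lymphoid cells (ILC2s). The 8 genes were chosen by their symbols, out of 27726 genes common to the 5 deposited matrices, and all 8 were detected in each library. All mice were female C57BL/6 WT animals of 4 to 8 weeks, and the cells of 5 mice were pooled for each library. The naïve library came from mice without tumour. The ta-non-activated libraries of week 2 and week 3 came from mice that carried a subcutaneous TC1 tumour, a mouse lung epithelial line transformed with HPV E6/E7 and c-Ha-ras. These 3 libraries are called fresh here, since their cells were sequenced without culture. The ta-activated libraries of week 2 and week 3, called cultured here, came from tumour-carrying mice too, and their cells spent a week in culture with rhIL-2, IL-33 and TSLP. Cells of all groups were sorted as lineage-negative, CD45+, ST2+, CD127+ and Thy1.2+.

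CIS and SOCS1 to SOCS3 are made when cytokine receptors activate Janus kinases and STAT factors, and they act back on the same pathway. The SH2 domain of CIS and SOCS proteins binds phosphorylated receptors or kinases. Their SOCS box recruits elongins B and C and Cullin 5, which mark the bound protein for degradation. In ILC2s, IL-2, IL-7 and TSLP signal through STAT5 and IL-4 and IL-13 through STAT6, while IL-33 uses the MyD88 pathway.

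The promoters of 3 members are shown because their STAT-type or interferon-type letters differ while their levels in the libraries differed too. Each is given from 250 bases before to 50 bases after the start of the RefSeq transcript (GRCm38.p6), and the start base is counted as 1. Capitals mark TTCNNNGAA, the letters of a STAT5-type site, or GAAANNGAAA (TTTCNNTTTC on the other strand), those of an interferon-type site. Both strands were searched, and TTCNNNNGAA, the STAT6-type letters, was in none of the 3.
Cish, chr9:107296409-107296708, + strand: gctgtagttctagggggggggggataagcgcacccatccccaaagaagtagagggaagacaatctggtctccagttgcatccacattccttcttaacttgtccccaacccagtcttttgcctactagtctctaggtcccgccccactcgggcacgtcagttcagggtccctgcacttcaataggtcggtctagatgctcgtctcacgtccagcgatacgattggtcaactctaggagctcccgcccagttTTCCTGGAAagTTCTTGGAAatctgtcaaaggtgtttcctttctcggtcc
Socs1, chr16:10785487-10785786, - strand: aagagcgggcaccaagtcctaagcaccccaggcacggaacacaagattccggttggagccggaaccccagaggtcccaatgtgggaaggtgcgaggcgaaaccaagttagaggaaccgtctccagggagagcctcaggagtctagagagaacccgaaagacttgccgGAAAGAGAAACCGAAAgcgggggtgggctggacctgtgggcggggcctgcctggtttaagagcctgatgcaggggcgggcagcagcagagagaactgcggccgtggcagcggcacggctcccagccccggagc
Socs3, chr11:117969317-117969616, - strand: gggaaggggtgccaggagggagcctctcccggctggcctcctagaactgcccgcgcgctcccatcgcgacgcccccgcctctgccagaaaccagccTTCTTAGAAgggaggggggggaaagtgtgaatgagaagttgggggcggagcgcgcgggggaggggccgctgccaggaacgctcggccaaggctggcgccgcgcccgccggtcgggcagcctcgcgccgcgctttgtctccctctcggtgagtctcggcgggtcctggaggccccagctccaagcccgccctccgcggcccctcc
The Cish window held 2 STAT5-type matches, TTCCTGGAA at bases 1 to 9 and TTCTTGGAA at bases 12 to 20, and no interferon-type match. The Socs1 window held 2 overlapping interferon-type matches, GAAAGAGAAA at bases -83 to -74 and GAAACCGAAA at bases -77 to -68, and no STAT5-type match. The Socs3 window held a single STAT5-type match, TTCTTAGAA at bases -154 to -146. Of 32851 promoters of the same length, 8.30% held the STAT5-type letters, 6.95% the STAT6-type letters and 3.44% the interferon-type letters. A match of letters is a description of the window and not a measured binding site. Whether these letters have a part in the levels of the members was not tested. RefSeq windows were used for 4 of the 8 members, and that of Socs4 held none of the 3 motifs.

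Kept cells, those in which 200 or more genes were detected and mitochondrial transcripts made up less than 5% of the counts, numbered 1601 to 6389 per library, with medians of 4396 to 16090 UMIs and totals of 9394957 to 61830293 UMIs. Pairs of libraries shared 1 to 8 barcodes. The week 3 ta-non-activated library stood apart in its T cell transcripts. Barcodes with at least 2 UMIs of Cd3d and Cd3e together that made up at least 300 CPM (UMIs per 1000000 UMIs), called Cd3-high here, were 51.2% of its cells, against 0.419% to 7.07% in the other 4 libraries. All 14 T cell and thymocyte markers were detected in it, with a summed level of 7235 CPM against 301 to 1315 in the other libraries. Rag1 and Rag2, which define rearranging thymocytes, were at 63.9 and 6.17 CPM there and at 0 in the other 4 libraries. The week 2 ta-non-activated library stood apart from the other fresh libraries in another way. Its 12 immediate early and stress genes summed to 1192 CPM, against 9304 in the naïve, 8424 in the week 3 ta-non-activated and 1683 and 1709 in the ta-activated libraries. Fos was at 0.692 CPM in it, 1.95 and 1.42 in the ta-activated libraries, 592 in the week 3 ta-non-activated and 1151 in the naïve library. Its Il13 was at 8861 CPM, against 55.6 in the naïve, 19.6 in the week 3 ta-non-activated and 3501 and 4318 in the ta-activated libraries. Across 7420 genes, the Spearman correlation of its levels was 0.82 with the week 2 ta-activated, 0.80 with the week 3 ta-activated and 0.75 with the week 3 ta-non-activated library. In these immediate early genes it therefore went with the cultured and not with the fresh libraries, and the members' differences with culture are given with and without it. The ILC2 markers Gata3 and Il1rl1 were detected in all 5 libraries, at 189 to 899 and 46.7 to 790.5 CPM. The summed markers of other cells reached 602 CPM for NK cells and ILC1s (of which Gzma gave 599.6), 132 for B cells, 82.3 for mast cells and basophils (Cpa3 alone) and 15.97 for myeloid cells in the week 3 ta-non-activated library, where 3 of the 4 mast cell and basophil markers were at 0. Epithelial and endothelial markers were highest in the naïve library, at 290.1 and 93.7 CPM, and mast cell and basophil markers in the week 2 ta-activated one, at 121 CPM. Cell division genes ranged from 85.5 CPM in the naïve to 1814 in the week 2 ta-activated library. The part of these cells in the levels of the members was not tested, apart from the Cd3-high barcodes.

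**Figure D1:**
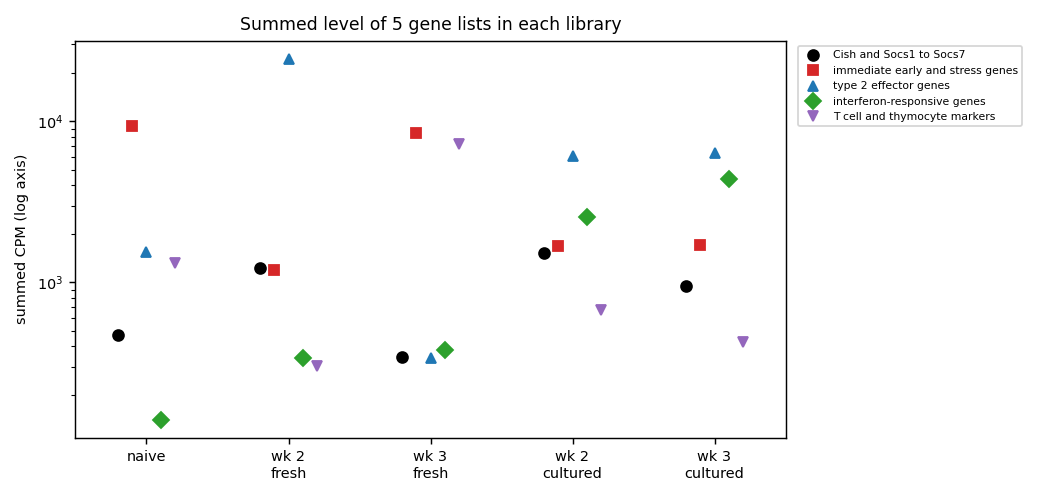
Summed CPM (log axis) of 5 gene lists in each library, 1 point per library and list, with the points of a library spread sideways for legibility. The immediate early and stress genes were at 1192 in the week 2 fresh library and at 9304 and 8424 in the other fresh libraries, and the 8 CIS and SOCS genes together ranged from 342 in the week 3 fresh to 1526 in the week 2 cultured library.

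The level of a gene is its CPM in the summed counts of all kept cells of a library, with an exact Poisson 95% interval. These intervals, and those of the log2 ratios between 2 libraries, cover counting error only. In such summed counts, fewer cells with a transcript and less transcript per cell cannot be told apart.

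Cish encodes CIS, a STAT5 target that restrains signalling by receptors of IL-2 and related cytokines. It was at 233 CPM (228 to 239) in the naïve library, 176 (172 to 181) in the week 2 and 42.9 (38.8 to 47.3) in the week 3 ta-non-activated library, and 170 (166 to 173) and 262 (258 to 266) in the ta-activated libraries of week 2 and week 3. The week 3 ta-non-activated library was thus the low one, and the other 4 lay within 170 to 262. Without the Cd3-high barcodes it held 129 CPM, and the other 4 libraries moved little, to 170 to 262. It stayed below the others, but at a smaller distance: the log2 ratio of week 3 to week 2 among fresh libraries was -2.04 (-2.19 to -1.89) with all barcodes and -0.45 (-0.61 to -0.30) without the Cd3-high ones. Cish differed little between fresh and cultured cells in week 2, with a log2 ratio of -0.057 (-0.10 to -0.010), and was 6.10-fold higher in the cultured library in week 3, a log2 ratio of 2.61 (2.47 to 2.76). Without the Cd3-high barcodes the week 3 value was 1.02 (0.87 to 1.18).

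Socs1 encodes an inhibitor of Janus kinases that is best known for limiting interferon and IL-4 signalling. Its levels spanned the widest range of the 8 members on the log2 scale among those over 100 CPM in any library: 55.9 CPM (53.3 to 58.5) in the naïve library, 919 (909 to 930) in the week 2 and 152 (144 to 160) in the week 3 ta-non-activated library, and 953 (945 to 961) and 502 (497 to 508) in the ta-activated libraries of week 2 and week 3. The week 2 fresh and the 2 cultured libraries were high, and the naïve and week 3 fresh libraries were low. The week 2 fresh library was 16.5-fold above the naïve one, a log2 ratio of 4.04 (3.97 to 4.11), and differed from its cultured counterpart by a log2 ratio of only 0.051 (0.031 to 0.071). In week 3, Socs1 was 3.30-fold higher in the cultured than in the fresh library, a log2 ratio of 1.72 (1.65 to 1.80), and without the Cd3-high barcodes 2.18 (2.01 to 2.34). The order of the libraries in Socs1 ran against that in the immediate early genes: the 3 libraries with a sum of 1192 to 1709 CPM of those genes were the high ones. Whatever set the immediate early genes apart in those libraries, its part in the Socs1 levels was not tested.

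Socs2 encodes an inhibitor best known for limiting growth hormone signalling, and it is a STAT5 target in lymphocytes. It was at 80.0 CPM (77.0 to 83.2) in the naïve library, 63.3 (60.7 to 66.1) in the week 2 and 30.7 (27.2 to 34.4) in the week 3 ta-non-activated library, and 153 (150 to 156) and 90.7 (88.3 to 93.1) in the ta-activated libraries of week 2 and week 3. The 2 cultured libraries were above the 3 fresh ones. In week 2 the cultured library was 2.42-fold higher, a log2 ratio of 1.27 (1.20 to 1.34), with all barcodes as without the Cd3-high ones. In week 3 the log2 ratio was 1.56 (1.39 to 1.74) with all barcodes and 0.0062 (-0.18 to 0.20) without the Cd3-high ones, where the fresh library held 90.4 CPM. The week 3 difference in Socs2 was therefore not seen among barcodes that were not Cd3-high.

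Socs3 encodes an inhibitor of receptors that use gp130, such as that of IL-6. It was at 14.5 CPM (13.2 to 15.8) in the naïve library, 26.6 (24.9 to 28.4) in the week 2 and 60.2 (55.4 to 65.4) in the week 3 ta-non-activated library, and 196 (192 to 200) and 40.4 (38.8 to 42.0) in the ta-activated libraries of week 2 and week 3. A single library, the week 2 cultured one, was far above the rest. It was 7.37-fold above the week 2 fresh library, a log2 ratio of 2.88 (2.78 to 2.98), and 4.86-fold above the week 3 cultured library. In week 3 the cultured library was the lower one, with a log2 ratio of -0.58 (-0.71 to -0.44). Without the Cd3-high barcodes the week 3 fresh library held 25.2 CPM and the log2 ratio of cultured to fresh turned to 0.68 (0.33 to 1.04). Among barcodes with a UMI of Gata3 or Il1rl1 that were not Cd3-high it was 1.70 (1.15 to 2.30), with the fresh library at 12.4 CPM.

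**Figure D2:**
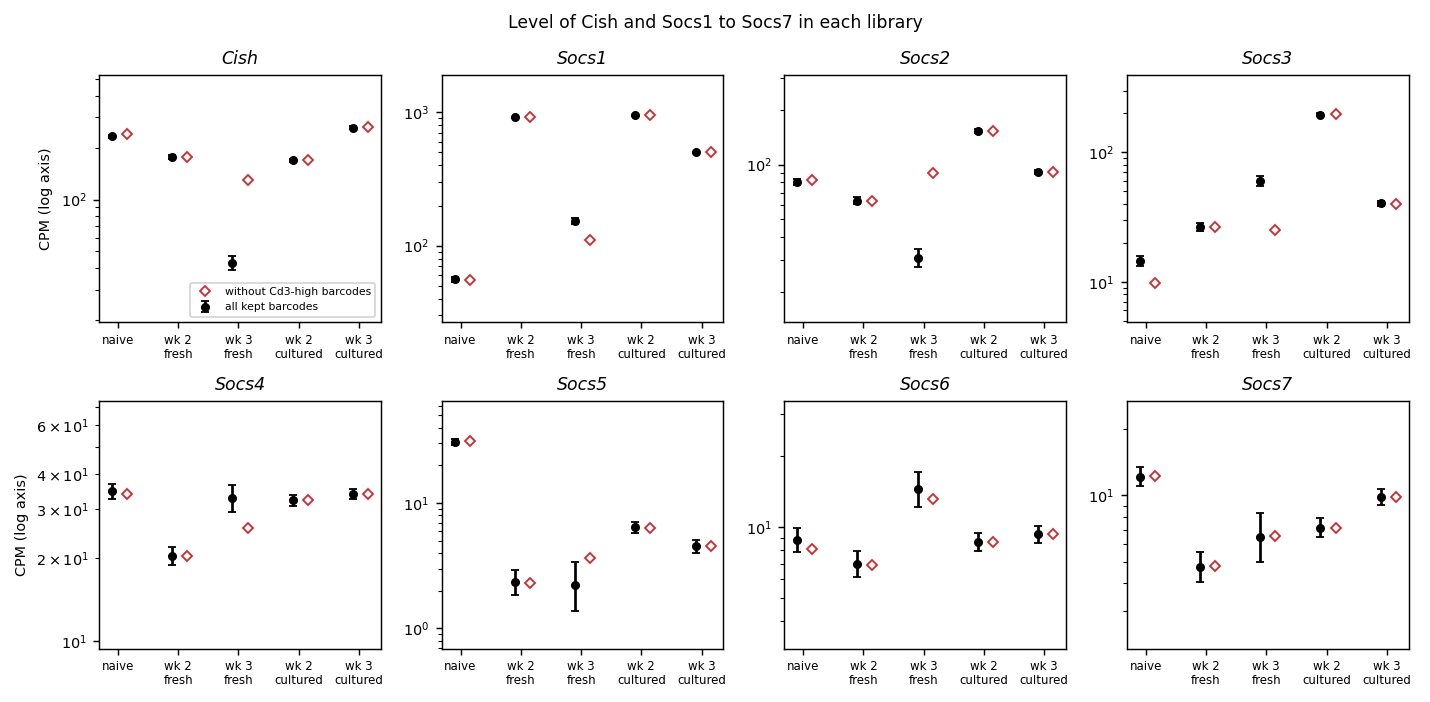
CPM (log axis) of each of the 8 genes in the 5 libraries: black points are all kept barcodes with exact Poisson 95% intervals, red diamonds the same libraries without Cd3-high barcodes. Cish, Socs2 and Socs3 of the week 3 fresh library moved most when the Cd3-high barcodes were left out (42.9 to 129, 30.7 to 90.4 and 60.2 to 25.2), and Socs1 was at 502 to 953 in the week 2 fresh and both cultured libraries.

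The 4 remaining members, Socs4 to Socs7, were at 2.24 to 34.7 CPM. Socs4 and Socs5 encode proteins that act on the EGF receptor, and Socs5 is also known as an inhibitor of the IL-4 receptor. Socs4 (chromosome 14, bases 47276931 to 47296102, GRCm38) was at 34.7 CPM in the naïve, 20.3 and 32.8 in the ta-non-activated, and 32.2 and 33.9 in the ta-activated libraries of week 2 and week 3, and only the week 2 fresh library lay below 30 with all barcodes. Socs5 (chromosome 17, bases 87107679 to 87137839) was at 30.7 CPM in the naïve library (28.9 to 32.7), 2.35 and 2.24 in the ta-non-activated, and 6.42 and 4.51 in the ta-activated libraries. The naïve library was 13.1-fold above the week 2 and 13.8-fold above the week 3 fresh library in Socs5. Genes with over 20000 intron bases were higher in the naïve library as a class. Their median log2 ratio of naïve to fresh was 1.15 against week 2 (4824 genes) and 0.86 against week 3 (4946 genes), and -0.66 and -0.68 among genes with under 5000 intron bases. Socs5 has 23745 intron bases in the gene model, and the part of intron length or of the other version of Cell Ranger in the naïve library was not tested.

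Socs6, which encodes an inhibitor of KIT signalling, was at 8.80 CPM in the naïve, 6.98 and 14.5 in the ta-non-activated, and 8.65 and 9.33 in the ta-activated libraries of week 2 and week 3. Its week 3 fresh level (12.1 to 17.1) was the high one, and stayed at 13.1 without the Cd3-high barcodes. Socs7, which encodes a partner of the adaptor Nck and of the insulin receptor pathway, was at 12.2 CPM in the naïve, 4.75 and 6.49 in the ta-non-activated, and 7.15 and 9.85 in the ta-activated libraries. The intervals of the week 3 fresh (4.97 to 8.34) and the week 2 cultured library (6.47 to 7.88) overlapped. Socs7 has 28727 intron bases and was highest in the naïve library as Socs5 was, while Socs6 was not, with 250909 intron bases.

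The members were next read within each library, in Cd3-high barcodes, in dividing barcodes and in the rest. Dividing barcodes had UMIs of at least 2 of 12 cell division genes, after thinning to 2000 UMIs, and were not Cd3-high. Any Cd3-high barcode with such UMIs was counted as Cd3-high. Cish and Socs2 showed 1 pattern in the week 3 ta-non-activated library, and Socs3 and Socs1 the opposite one. Cish was at 7.37 CPM in the Cd3-high barcodes and at 142 in the rest, a log2 ratio of -4.27 (-4.74 to -3.84). Socs2 was at 5.87 in the Cd3-high barcodes and at 103 in the rest, a log2 ratio of -4.14 (-4.66 to -3.64). Both genes were thus low in the barcodes with T cell transcripts. These made up 54.6% of the cells with at least 2000 UMIs and held 13.0% of the Cish and 14.1% of the Socs2 UMIs. They were also deeper, with a median of 6120 UMIs against 3021.5 in the rest. A share of a gene's UMIs is therefore not directly comparable with the share of cells, for Socs3 as well. Socs3 was at 74.8 CPM in the Cd3-high barcodes and at 26.9 in the rest, a log2 ratio of 1.47 (1.09 to 1.88), and 88.0% of its UMIs came from them. Socs1 was at 169 in the Cd3-high barcodes and at 107 in the rest, a log2 ratio of 0.66 (0.46 to 0.87).

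The naïve library, with 7.29% Cd3-high barcodes among cells with at least 2000 UMIs, gave the same direction for Socs3, at 69.7 CPM in Cd3-high barcodes and 9.56 in the rest, a log2 ratio of 2.86 (2.59 to 3.14). These barcodes held 38.7% of its Socs3 UMIs. Cish differed less there, at 153 CPM in the Cd3-high barcodes and 243 in the rest, a log2 ratio of -0.67 (-0.82 to -0.52), and so did Socs2, at 52.9 and 83.3. In the week 2 ta-activated library, where 1.77% of these cells were Cd3-high, the order in Socs3 was the other way round: 68.6 CPM in the Cd3-high barcodes (39 UMIs in all) and 245 in the rest. The 16 Cd3-high barcodes of the week 3 ta-activated library held 11 Socs3 UMIs, or 144 CPM, against 40.9 in the rest. After thinning to 2000 UMIs, a Socs3 UMI was seen in 31.8% (30.1% to 33.5%, exact Clopper-Pearson) of the cells of the week 2 ta-activated library and in 7.59% (6.76% to 8.49%) of those of week 3. Dividing barcodes of the week 2 ta-activated library had lower CPM of Socs3 and Socs1 than the rest. These were 112 against 245 and 742 against 1074, log2 ratios of -1.12 (-1.19 to -1.06) and -0.53 (-0.56 to -0.51). Cish and Socs2 were lower in CPM there too, with log2 ratios of -0.34 and -0.33. CPM is a share of UMIs, and the dividing barcodes had a median of 24874 UMIs against 11629 in the rest. They were 23.6% of the cells and held 27.9% of the Socs1 and 20.6% of the Socs3 UMIs. In the week 3 ta-activated library the log2 ratios of dividing barcodes to the rest were -0.098 (-0.23 to 0.032) for Socs3 and -0.34 (-0.38 to -0.30) for Socs1. Cells of a library are not replicates, and no test was made between these groups of barcodes.

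**Figure D3:**
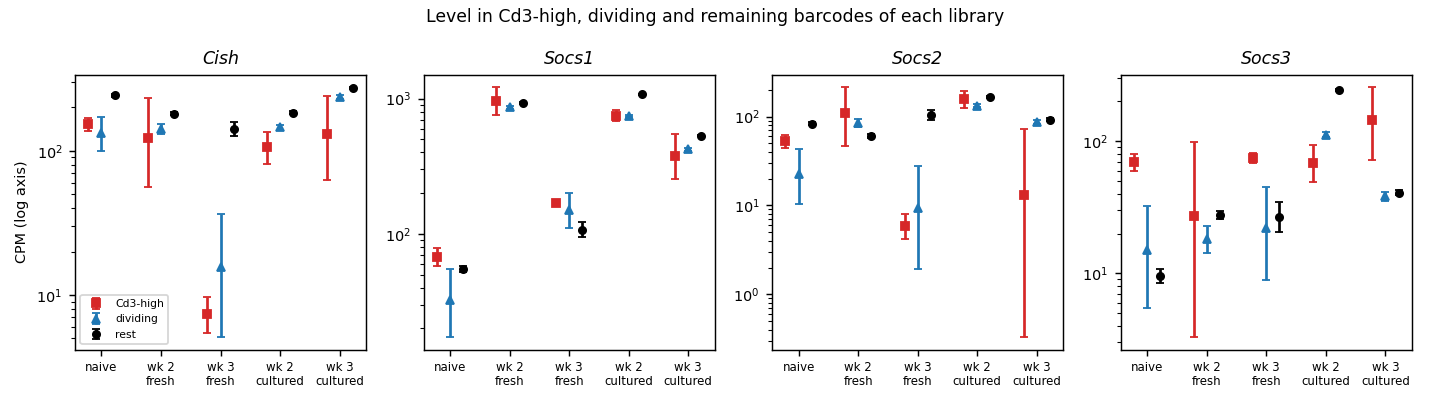
CPM (log axis) of Cish, Socs1, Socs2 and Socs3 in Cd3-high (red squares), dividing but not Cd3-high (blue triangles) and remaining barcodes (black points) of each library, with exact Poisson 95% intervals. In the week 3 fresh library Cish and Socs2 were at 7.37 and 5.87 in Cd3-high barcodes and at 142 and 103 in the rest, while Socs3 was higher in Cd3-high barcodes of the naïve, week 3 fresh and week 3 cultured libraries (11 UMIs in the last).

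Shares of cells were counted after each cell with at least 2000 UMIs was thinned to 2000 UMIs, which kept 6147 of 6389 cells in the naïve, 1809 of 1823 and 1495 of 1601 in the ta-non-activated, and 2822 of 2895 and 3714 of 3822 in the ta-activated libraries. A UMI of Socs1 was seen in 9.58% of naïve cells (8.86% to 10.3%), in 77.6% and 21.3% of ta-non-activated cells of week 2 and week 3, and in 79.5% and 57.2% of ta-activated cells. Without thinning these shares were 20.02%, 97.9%, 40.8%, 96.4% and 91.5%. A UMI of Cish was seen in 33.3% of naïve cells, in 30.1% and 12.2% of ta-non-activated and in 27.6% and 40.5% of ta-activated cells (56.2%, 88.1%, 18.7%, 78.7% and 88.3% without thinning). Cells with any of the 8 members were 55.6% of naïve, 87.2% and 49.4% of ta-non-activated, and 91.7% and 81.1% of ta-activated cells. No cell type that should lack these genes was at hand in these libraries, so the share that free RNA gives was not measured.

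Fresh and cultured cells of tumour-carrying mice were compared over libraries, 2 ta-activated against 2 ta-non-activated, with edgeR's quasi-likelihood test on summed counts and Benjamini-Hochberg adjustment over 12643 genes. None of the 8 members passed, against 0 of 12643 genes, or 0%. At an unadjusted p under 0.05 there were 2120 genes and 0 members, and DESeq2 called 1037 genes (8.20%) and 0 members. The fitted log2 difference was positive for 7 of 8 members, with a median of 0.64 beside -0.019 over all genes tested. It was 0.78 ± 0.81 (SE; edgeR adjusted p = 0.641) for Cish, 0.25 ± 0.98 (adjusted p = 0.911) for Socs1, 1.23 ± 0.59 (adjusted p = 0.367) for Socs2 and 1.42 ± 0.86 (adjusted p = 0.444) for Socs3. For Socs5 it was 1.14 ± 0.47 (adjusted p = 0.317), and for Socs4, Socs6 and Socs7 it lay between -0.31 and 0.51. For Cish, Socs1 and Socs3 these differences were smaller than those between the weeks within a group, where log2 ratios reached -2.04, -2.59 and -2.28. Separate cultures or animals within a week were not measured, so these p-values rest on the spread between 2 weeks.

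The call for Cish depended on 1 library. Without the week 2 ta-non-activated library its log2 difference was 2.39 ± 0.39 (edgeR adjusted p = 0.0422), and it was the only 1 of 8 members called, with 12.1% of 13604 genes called. With the Cd3-high barcodes left out as well it was 0.71 ± 0.36 (adjusted p = 0.286). Socs1 without that library was at 2.33 ± 0.56 (adjusted p = 0.0720), and at 2.70 ± 0.56 (adjusted p = 0.0862) when the Cd3-high barcodes were left out too. The other members that stood above 1 with all libraries were not called without that of week 2 either, with Socs2 at 2.07 ± 0.48 (adjusted p = 0.0686), Socs3 at 1.06 ± 1.06 (adjusted p = 0.505) and Socs5 at 1.36 ± 0.47 (adjusted p = 0.130). With the week 3 ta-non-activated library left out in place of that of week 2, the Cish difference was 0.037 ± 0.34 (adjusted p = 0.948) and the Socs1 difference -0.57 ± 0.46 (adjusted p = 0.442), and 3.85% of genes and 0 members were called.

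Between single libraries a difference was counted when it was at least 2-fold and the gene had at least 5 CPM in either library. In week 2, Socs2, Socs3 and Socs5 were at least 2-fold higher in the cultured library (3 of 8 members, against 17.9% of 9048 genes) and 0 of 8 were lower (10.2%). In week 3, Cish, Socs1 and Socs2 were higher (3 of 7 members that reached the level, against 20.3% of 9649 genes) and 0 of 7 lower (18.0%). Socs2 was the member on both lists with all barcodes. The set of members that differed with culture was therefore not the same in the 2 weeks, and the difference between the weeks has no replicate.

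Week 3 was compared with week 2 by the week term of the edgeR model with group and week, over the 4 libraries. None of the 8 members passed (0 of 12643 genes, 0%), with 225 genes at an unadjusted edgeR p under 0.05. DESeq2 called 49 genes (0.388%) and 0 members. With 4 libraries and terms for both group and week, the edgeR test had little spread to work from. Its lack of calls does not show that the weeks were alike. Socs1 had the lowest unadjusted p of the members (0.0293), at a log2 difference of -1.93 ± 0.62 and an adjusted p of 0.987. It was lower in week 3 in both pairs, by a log2 ratio of -2.59 (-2.67 to -2.52) among fresh and -0.92 (-0.94 to -0.90) among cultured libraries. Socs2 was also lower in both pairs, by -1.05 and -0.75, but without the Cd3-high barcodes the fresh pair stood at 0.52 (0.32 to 0.71). Cish went opposite ways, -2.04 among fresh and 0.63 (0.59 to 0.66) among cultured libraries. Socs3 did too, at 1.18 (1.02 to 1.33) among fresh and -2.28 (-2.34 to -2.22) among cultured libraries, and without the Cd3-high barcodes the fresh pair stood at -0.081 (-0.46 to 0.27).

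Among fresh libraries, Socs3 and Socs6 were at least 2-fold higher in week 3 (2 of 7 members, against 21.7% of 9228 genes) and Cish, Socs1 and Socs2 lower (3 of 7, against 11.9%). Without the Cd3-high barcodes 0 members were at least 2-fold higher and 1, Socs1, was lower, and Socs6 stood at 1.89-fold. The share over all genes was not counted without those barcodes, so these counts cannot be set against it. Among cultured libraries 0 of 8 members were higher (3.55% of 9104 genes), and Socs3 was lower (1 of 8, against 3.09%). The cultured libraries were thus much alike, and Socs3 was the member that stood out between them.

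**Figure D4:**
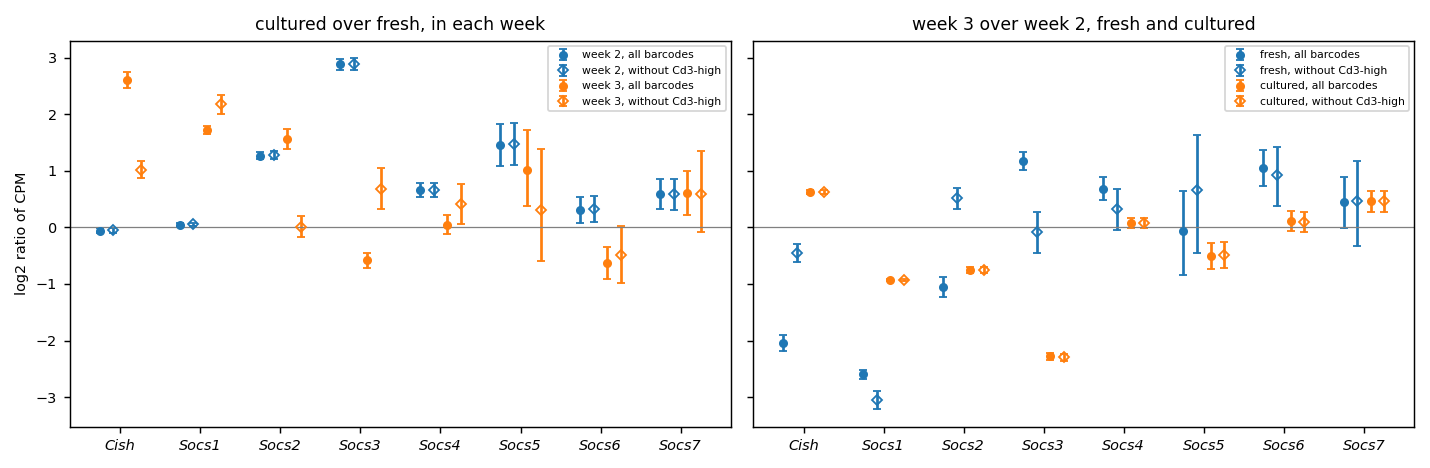
Log2 ratios of CPM for the 8 genes, cultured over fresh in week 2 (blue) and week 3 (orange) on the left, and week 3 over week 2 among fresh (blue) and cultured libraries (orange) on the right. Filled points are all kept barcodes, open diamonds are without Cd3-high barcodes, and bars are exact conditional binomial 95% intervals. Socs3 was at 2.88 in week 2 and -0.58 in week 3 with all barcodes, and at 0.68 in week 3 without the Cd3-high ones.

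No test was run against the single naïve library. In the week 2 ta-non-activated library Socs1 was at least 2-fold higher than in the naïve one (1 of 8 members, against 21.0% of 9614 genes), and Socs5 and Socs7 were lower (2 of 8, against 36.1%). In the week 3 ta-non-activated library Socs1 and Socs3 were higher (2 of 8, against 20.2% of 9882 genes), and Cish, Socs2 and Socs5 were lower (3 of 8, against 29.8%). Without the Cd3-high barcodes the log2 ratio of week 3 fresh to naïve was 1.02 (0.84 to 1.20) for Socs1, 1.37 (0.97 to 1.75) for Socs3, -0.90 (-1.05 to -0.74) for Cish and 0.13 (-0.060 to 0.32) for Socs2. Socs1 was above the naïve level in all 4 other libraries by at least 2-fold, with all barcodes and without the Cd3-high ones. The gate on Gata3 or Il1rl1 gave Socs1 a log2 ratio of 0.76 (0.54 to 0.97) for week 3 fresh. Without the Cd3-high barcodes Socs3 was at least 2-fold above it in all 4 too. It then held 9.73 CPM in the naïve, 26.6 and 25.2 in the ta-non-activated and 197 and 40.2 in the ta-activated libraries. With the gate its log2 ratio of week 3 fresh to naïve was 0.67 (0.040 to 1.25). Socs5 was below the naïve level in all 4. In the gene model Socs1 has 389 and Socs3 has 1078 intron bases. Genes with under 5000 intron bases were lower in the naïve library as a class. Their median log2 ratio of naïve to fresh was -0.66 against week 2 and -0.68 against week 3. The part of intron length or of the version of Cell Ranger in the Socs1 and Socs3 differences from naïve was not tested.

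The other genes of the pathway were read as lists, and 0 genes of any list passed the edgeR test of ta-activated against ta-non-activated. All 4 Janus kinases had positive log2 differences (median 1.05), as did 7 of 8 STAT5-responsive genes (median 1.14). So did 11 of 16 cytokine receptors that signal through STATs (median 0.30). In week 2, though, the Janus kinases summed to less in the cultured library (545 CPM against 621), with Jak1 and Jak2 lower and Jak3 and Tyk2 higher. In week 3 they summed to 990 CPM against 231. The sums of the STAT5-responsive genes and of the cytokine receptors were higher in the cultured library in both weeks. Of the 7 STATs, 4 were above 0 and 3 below (median 0.26). Without the Cd3-high barcodes 4 were again above 0 and 3 below (median 0.0083). All 12 interferon-responsive genes were above 0 (median 4.05), with 9 of them at an unadjusted p under 0.05. The 6 genes listed as partners of the SOCS box, such as Elob (elongin B), were all below 0 (median -0.43). Of 12 other inhibitors of the pathway, 8 were above it (median 0.37). All 12 T cell and thymocyte markers that could be tested were below 0 (median -4.77), and their part in these lists was not tested beyond leaving out the Cd3-high barcodes. Without those barcodes 7 of 16 cytokine receptors (median -0.051), 6 of 8 STAT5-responsive genes (median 1.02) and all 4 Janus kinases (median 0.69) were above 0. Of 11 T cell and thymocyte markers that could then be tested, 10 were still below 0 (median -2.39). With week 3 as the only fresh library, medians were 2.50 (STAT5-responsive genes), 0.59 (cytokine receptors), 1.96 (Janus kinases) and 3.44 (interferon-responsive genes). In that fit 4 of the 6 genes listed as partners of the SOCS box were above 0 (median 0.32). All 14 T cell and thymocyte markers were below 0 in it (median -6.35), and 51.2% of the cells of its fresh library were Cd3-high. The part of those barcodes in these medians was not tested. Isg15, an interferon target, was at 8.52 CPM in the naïve, 17.2 and 166 in the ta-non-activated, and 862 and 1701 in the ta-activated libraries of week 2 and week 3. Il2ra, the alpha chain of the IL-2 receptor and a STAT5 target, was at 425 CPM in the naïve, 321 and 136 in the ta-non-activated and 1107 and 356 in the ta-activated libraries.

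The genes whose log2 levels went most closely with each member over the 5 libraries were sought among 7419 genes, by Pearson's r of log2(CPM + 1), as a description. They were Dnajc4, Flna and Eif2ak1 for Cish, Pnp, Tmed3 and Pafah1b2 for Socs1, Myl6, Rexo5 and Fxyd5 for Socs2, and Tm7sf3, Wdr1 and Fth1 for Socs3, with r of 0.977 or more. With only 5 points such values are common: 191 genes had an r above 0.9 with Cish, 378 with Socs1, 149 with Socs2 and 26 with Socs3. Pnp, a purine enzyme, was at 33.2 CPM in the naïve, 111 and 53.2 in the ta-non-activated and 114 and 86.6 in the ta-activated libraries, which is the order of Socs1.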

How the data were processed

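Cells of 5 libraries were sorted and sequenced on the 10x Genomics 3' v3.1 platform. The authors aligned the reads with Cell Ranger (3.0.2 in the submitters' processing notes and in 4 file headers, 6.0.0 in the header of the naïve matrix; build GRCm38 in the notes) and deposited raw UMI counts per gene and barcode, with no normalization. Barcodes needed 200 or more detected genes and less than 5% mitochondrial counts to be kept, and doublets were not called. Counts were summed per library. The main test was edgeR 4.0.16 (filterByExpr, TMM, quasi-likelihood F test, threshold 0.05), and the SE is the log2 difference over the root of F. Its code was run on simulated counts with 200 changed genes. Those counts came from a shared mean profile with no step between weeks, so they do not show how the test performs on these libraries. Ratios between single libraries have exact conditional binomial 95% intervals and no p. Gene models are GENCODE M21. R 4.3.3, Python 3.11.15, DESeq2 1.42.0, numpy, scipy and pandas were used.

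The members and the 19 gene lists were chosen with earlier results of these data known. The genes named are the 8 members, genes of the gates, from the 2 with the highest mean level in each list those that a result turned on, and for Cish, Socs1, Socs2 and Socs3 the 3 most alike genes. Fos, Rag1, Rag2 and the 3 promoters were chosen after their values were seen. Alternatives were DESeq2, no filter on low counts, all deposited barcodes, a mitochondrial limit of 10%, no Cd3-high barcodes, only barcodes with a UMI of Gata3 or Il1rl1, each library left out, the week as a replicate block, all 5 libraries in 1 fit, the naïve library joined to the fresh group, means over cells, and no thinning or thinning to 1000 UMIs. The values of 1 gene of the lists are not reported here.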

Additional observations from a re-analysis of the deposited data

Results flagged for a closer look

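For 3 members the log2 ratio of the cultured to the fresh library had opposite signs in the 2 weeks, with intervals that left out 0 on both sides. These intervals cover counting error only, and Cish differed little in week 2. The week 2 fresh library also went with the cultured ones in the immediate early genes. With 1 library per week and group, the difference between the weeks was not tested. The log2 ratio of the cultured to the fresh library was -0.057 in week 2 and 2.61 in week 3 for Cish, 2.88 and -0.58 for Socs3, and 0.31 and -0.63 for Socs6. Of these, Socs3 was positive in both weeks without the Cd3-high barcodes (2.89 and 0.68), Cish stood at -0.053 and 1.02 (with the Gata3 or Il1rl1 gate at -0.034 in week 2, from -0.081 to 0.013, an interval that holds 0), and the week 3 interval of Socs6 then held 0 (-0.50, from -0.98 to 0.033).

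The step from week 2 to week 3 went opposite ways in fresh and cultured libraries for Cish, with log2 ratios of -2.04 and 0.63, and for Socs3, with 1.18 and -2.28. This too was not tested. It is the same 4 libraries read the other way, and adds nothing to the values of culture. Without the Cd3-high barcodes Cish stood at -0.45 and 0.62 and Socs3 at -0.081 and -2.29.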

How the results depend on the processing

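Genes called for ta-activated against ta-non-activated numbered 0 with edgeR, 1037 with DESeq2, and 0 to 1646 when a library was left out, with 1646 without the week 2 and 513 without the week 3 ta-non-activated library. Leaving out the Cd3-high barcodes too, a choice made after the data were seen, gave 16 without the week 2 and 28 without the week 3 ta-activated library, 231 without the week 2 and 690 without the week 3 ta-non-activated library. Joining the naïve library to the fresh group with neither Cd3-high barcodes nor the week 2 ta-non-activated library gave 578. Members called numbered 0 to 1 when a library was left out, and 0 under the other settings. With 1 library left in a group, the lone library is assumed to vary like the others. Week 3 against week 2 gave 0 genes with edgeR and 49 with DESeq2.

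Numbers shared between the groups are weeks, and no pairing was assumed. Libraries of the same week did not deviate together (r = -0.052 over 12643 genes, all barcodes). The fresh libraries differed in Cd3-high barcodes, 0.494% in week 2 and 51.2% in week 3. This r therefore cannot show whether libraries of a week are paired. With the week as a replicate block, 0 genes and 0 members were called.

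Of 144 values of the members under other settings for this comparison, 11 turned in sign, none of them called. Socs1 stood at -0.57 without the week 3 ta-non-activated and at -0.24 without the week 2 ta-activated library (-0.57 and -0.26 without Cd3-high barcodes). Socs3 stood at -0.15 without the week 2 ta-activated library, and Socs6 at 0.12 without the week 3 ta-non-activated one, with or without Cd3-high barcodes. With the naïve library joined to the fresh group Socs5 stood at -0.98, at -1.17 without Cd3-high barcodes and at -1.69 without the week 2 ta-non-activated library as well, where Socs7 stood at -0.15. Over the 4 left-out libraries the range was 0.037 to 2.39 for Cish, -0.57 to 2.33 for Socs1, -0.15 to 2.17 for Socs3 and -0.62 to 0.12 for Socs6. For week 3 against week 2, leaving out a library leaves 1 pair and no test: Cish then stood at -2.04 (fresh) to 0.63 (cultured) and Socs3 at -2.28 (cultured) to 1.18 (fresh).

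Of 96 ratios between 2 libraries, 9 turned. Without Cd3-high barcodes and with the Gata3 or Il1rl1 gate in turn, Socs3 stood at 0.68 and 1.70 for culture in week 3 and at -0.081 and -1.10 for week 3 to week 2 among fresh libraries. Socs2 stood at 0.52 and 0.64 for the latter and at 0.13 and 0.27 for week 3 fresh to naïve, and with the gate at -0.12 for culture in week 3. Counts of members at least 2-fold apart moved as follows, and the share over all genes was not counted under these choices. For week 3 to week 2 among fresh libraries, 0 were higher under either choice and 1 lower without Cd3-high barcodes. For week 2 fresh to naïve, 2 were higher under either, Socs1 and Socs3. For week 3 fresh to naïve, 0 were higher with the gate and 1 lower under either. The cause was not tested beyond the removal of those barcodes. The 21 Socs5 UMIs of the week 3 ta-non-activated library gave an interval of 1.38 to 3.42 CPM.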
